A study of Homo sapiens with 6 samples.

Results

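Cullin-RING ligase genes were examined in ATAC-seq data, which mark open chromatin by where the Tn5 transposase inserts adapters into DNA. The genes were chosen by symbol, as RefSeq protein-coding genes of the cullins (CUL), the F-box proteins (FBXO, FBXL and FBXW), the KLHL proteins and the DCAF proteins, each name followed by a digit. There were 127 such genes of 19970 protein-coding genes on chromosomes 1 to 22 and X, namely 8 CUL, 36 FBXO, 17 FBXL, 10 FBXW, 37 KLHL and 19 DCAF genes. The cells were Huh7, an established human hepatocellular carcinoma line, and in all of them ARID1A had been knocked out. ARID1A is a DNA-binding subunit of the BAF (SWI/SNF) chromatin remodelling complex. In the V2084D shSTUB1 group a Flag-tagged ARID1A with the missense change V2084D was stably expressed from a lentivirus and STUB1, a chaperone-linked ubiquitin ligase, was knocked down. The V2084D group carried the same ARID1A mutant without that knockdown, and no control hairpin is named for it. The WT group carried Flag-tagged wild-type ARID1A. Each of the 3 groups had 2 libraries. Whether the lines were clones or pools is not stated, nor is whether replicates were separate cultures, so p-values measure only the spread between these libraries.

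Cullin-RING ligases are modular enzymes that attach ubiquitin to proteins. A cullin is the scaffold: its far end holds a RING subunit, which recruits the ubiquitin-conjugating enzyme, and its near end holds a substrate receptor through an adaptor. CUL1 uses SKP1 to hold F-box proteins, CUL3 binds the BTB domain of KLHL proteins directly, and CUL4A and CUL4B use DDB1 to hold DCAF proteins. CUL2 and CUL5 use the elongins and receptors that the symbol rule did not collect. The small protein NEDD8 switches the cullin on, the COP9 signalosome takes NEDD8 off, and CAND1 exchanges receptors. STUB1 is not a cullin-RING ligase.

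For each library a gene was scored as having a gene-end peak where a called peak lay within 1000 bp of its annotated start or end. The lists differed in depth and length. They held 7401 to 30768 summits, with a median of 8 to 12 reads at a summit. Relative depth, the lowest local background recovered in a list over that of WT replicate 2, ran from 1 to 1.70. It did not follow list length throughout: V2084D replicate 1 stood at 1.17 with 9231 summits and WT replicate 1 at 1.01 with 10441. V2084D replicate 2 was the deepest and WT replicate 2 the shallowest, and V2084D replicate 1, with 9231 summits, was closer in length to the WT lists than to its own replicate. The share of all protein-coding genes with a gene-end peak was 48.1% and 40.6% in the V2084D shSTUB1 libraries, 31.1% and 54.7% in the V2084D libraries and 32.3% and 24.2% in the WT libraries. A missing peak therefore means only that none was called in that list. Of 12 hepatocyte markers, 11 had no gene-end peak in any library, ALB, HNF4A and AFP among them, so the hepatocyte origin of the line could not be read from these peaks. Of the markers of other cells, KDR (endothelial) had a peak in 5 libraries, COL1A1 (fibroblast) in 6 and SPI1 (leukocyte) in 3, and the other 12 of 15 had none.

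The promoters of the leading member of each class are printed because the peaks in all 6 libraries lie at or beside them, and those of FBXO4 and FBXO10 because their peaks separate groups of libraries. They are RefSeq promoters on GRCh38, read 5′ to 3′ along the gene from 250 bases before to 50 after the start. Capitals mark matches on either strand to the CCAAT box, the GC box GGGCGG, the ETS core CCGGAA, the NRF1-type core TGCGCA, the YY1-type core ATGGCGG or the TATA box TATAAA, as a description of the letters and not as factor binding.
CUL5 (chr11:108008648-108008947, + strand): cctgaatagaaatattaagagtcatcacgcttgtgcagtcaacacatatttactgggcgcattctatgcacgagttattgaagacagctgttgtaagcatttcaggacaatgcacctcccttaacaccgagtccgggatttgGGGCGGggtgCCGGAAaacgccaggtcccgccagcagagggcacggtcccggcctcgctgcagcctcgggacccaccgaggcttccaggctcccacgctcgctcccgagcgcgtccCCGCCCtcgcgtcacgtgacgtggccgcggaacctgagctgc
FBXO27 (chr19:39032500-39032799, − strand): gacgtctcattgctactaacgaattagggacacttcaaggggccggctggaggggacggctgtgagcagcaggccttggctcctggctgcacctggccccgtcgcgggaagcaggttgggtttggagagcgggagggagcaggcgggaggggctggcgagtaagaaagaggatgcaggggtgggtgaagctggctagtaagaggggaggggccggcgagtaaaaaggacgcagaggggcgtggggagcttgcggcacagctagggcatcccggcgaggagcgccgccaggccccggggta
FBXL19 (chr16:30922601-30922900, + strand): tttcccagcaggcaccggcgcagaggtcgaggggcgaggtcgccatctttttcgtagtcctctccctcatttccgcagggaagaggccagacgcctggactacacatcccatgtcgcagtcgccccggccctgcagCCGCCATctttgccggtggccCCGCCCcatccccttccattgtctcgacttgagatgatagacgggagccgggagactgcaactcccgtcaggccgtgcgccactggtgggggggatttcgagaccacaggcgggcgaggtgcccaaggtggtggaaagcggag
FBXW11 (chr5:172006589-172006888, − strand): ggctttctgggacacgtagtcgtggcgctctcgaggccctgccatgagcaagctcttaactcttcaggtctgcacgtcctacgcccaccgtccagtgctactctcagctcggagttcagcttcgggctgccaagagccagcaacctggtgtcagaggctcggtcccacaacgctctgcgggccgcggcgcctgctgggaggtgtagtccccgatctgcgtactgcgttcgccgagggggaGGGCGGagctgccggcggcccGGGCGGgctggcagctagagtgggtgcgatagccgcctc
KLHL20 (chr1:173714731-173715030, + strand): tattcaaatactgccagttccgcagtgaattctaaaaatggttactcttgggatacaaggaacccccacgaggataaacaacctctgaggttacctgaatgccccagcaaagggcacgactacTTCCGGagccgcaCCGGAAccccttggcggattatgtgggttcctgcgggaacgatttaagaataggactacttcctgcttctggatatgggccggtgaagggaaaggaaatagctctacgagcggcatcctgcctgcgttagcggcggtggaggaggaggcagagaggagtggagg
DCAF17 (chr2:171433976-171434275, + strand): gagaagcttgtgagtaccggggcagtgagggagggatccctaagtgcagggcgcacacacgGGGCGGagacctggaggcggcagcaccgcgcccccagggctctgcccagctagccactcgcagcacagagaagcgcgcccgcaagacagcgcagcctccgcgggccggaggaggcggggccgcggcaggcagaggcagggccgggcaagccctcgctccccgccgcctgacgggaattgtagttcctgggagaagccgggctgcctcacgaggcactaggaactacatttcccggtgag
FBXO4 (chr5:41925031-41925330, + strand): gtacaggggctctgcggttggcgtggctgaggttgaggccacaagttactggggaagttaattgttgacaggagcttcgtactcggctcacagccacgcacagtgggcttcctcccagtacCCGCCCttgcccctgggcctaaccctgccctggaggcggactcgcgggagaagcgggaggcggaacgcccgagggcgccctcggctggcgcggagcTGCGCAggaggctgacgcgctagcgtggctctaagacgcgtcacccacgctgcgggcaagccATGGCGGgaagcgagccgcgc
FBXO10 (chr9:37576331-37576630, − strand): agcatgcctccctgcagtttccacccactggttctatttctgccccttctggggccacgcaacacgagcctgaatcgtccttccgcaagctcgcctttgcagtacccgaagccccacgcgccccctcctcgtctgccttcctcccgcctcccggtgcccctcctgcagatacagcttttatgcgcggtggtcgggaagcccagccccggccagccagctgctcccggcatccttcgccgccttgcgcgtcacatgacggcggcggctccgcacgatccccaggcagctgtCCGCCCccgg

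Peaks covered these windows to different extents. All 300 bases of the FBXL19 promoter lay under a peak in each of the 6 libraries, and at least 295 bases of the FBXW11 promoter did. For DCAF17 the covered length was 300 and 300 bases in V2084D shSTUB1, 300 and 300 in V2084D and 198 and 278 in WT. The CUL5 window was covered by 177 and 186 bases in V2084D shSTUB1, 0 and 201 in V2084D and 0 and 97 in WT, because that peak often began just inside the gene. None of the FBXO27 window lay under a peak in any library: its peak summits sat 777 to 937 bp inside the gene.

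Peaks at cullin-RING ligase genes were common in these cells. A gene-end peak was present at 70 and 62 of the 127 members in the V2084D shSTUB1 libraries, 52 and 83 in the V2084D libraries and 55 and 39 in the WT libraries. As shares these were 55.1% and 48.8%, 40.9% and 65.4%, and 43.3% and 30.7%, in the same order. In every library the members' share was above that of all protein-coding genes, by 1.15 to 1.34 times. In all, 30 members (23.6%) had a peak in all 6 libraries, against 15.8% of all protein-coding genes, and 39 (30.7%) had none in any, against 41.8%. The other 58 had a peak in 1 to 5 libraries. With lists cut to equal length, 13 of 127 members had a peak in all 6 libraries, against 8.40% of all genes. With a −log10 q of at least 5 it was 3 of 127, a share below the 3.18% of all genes.

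**Figure D1:**
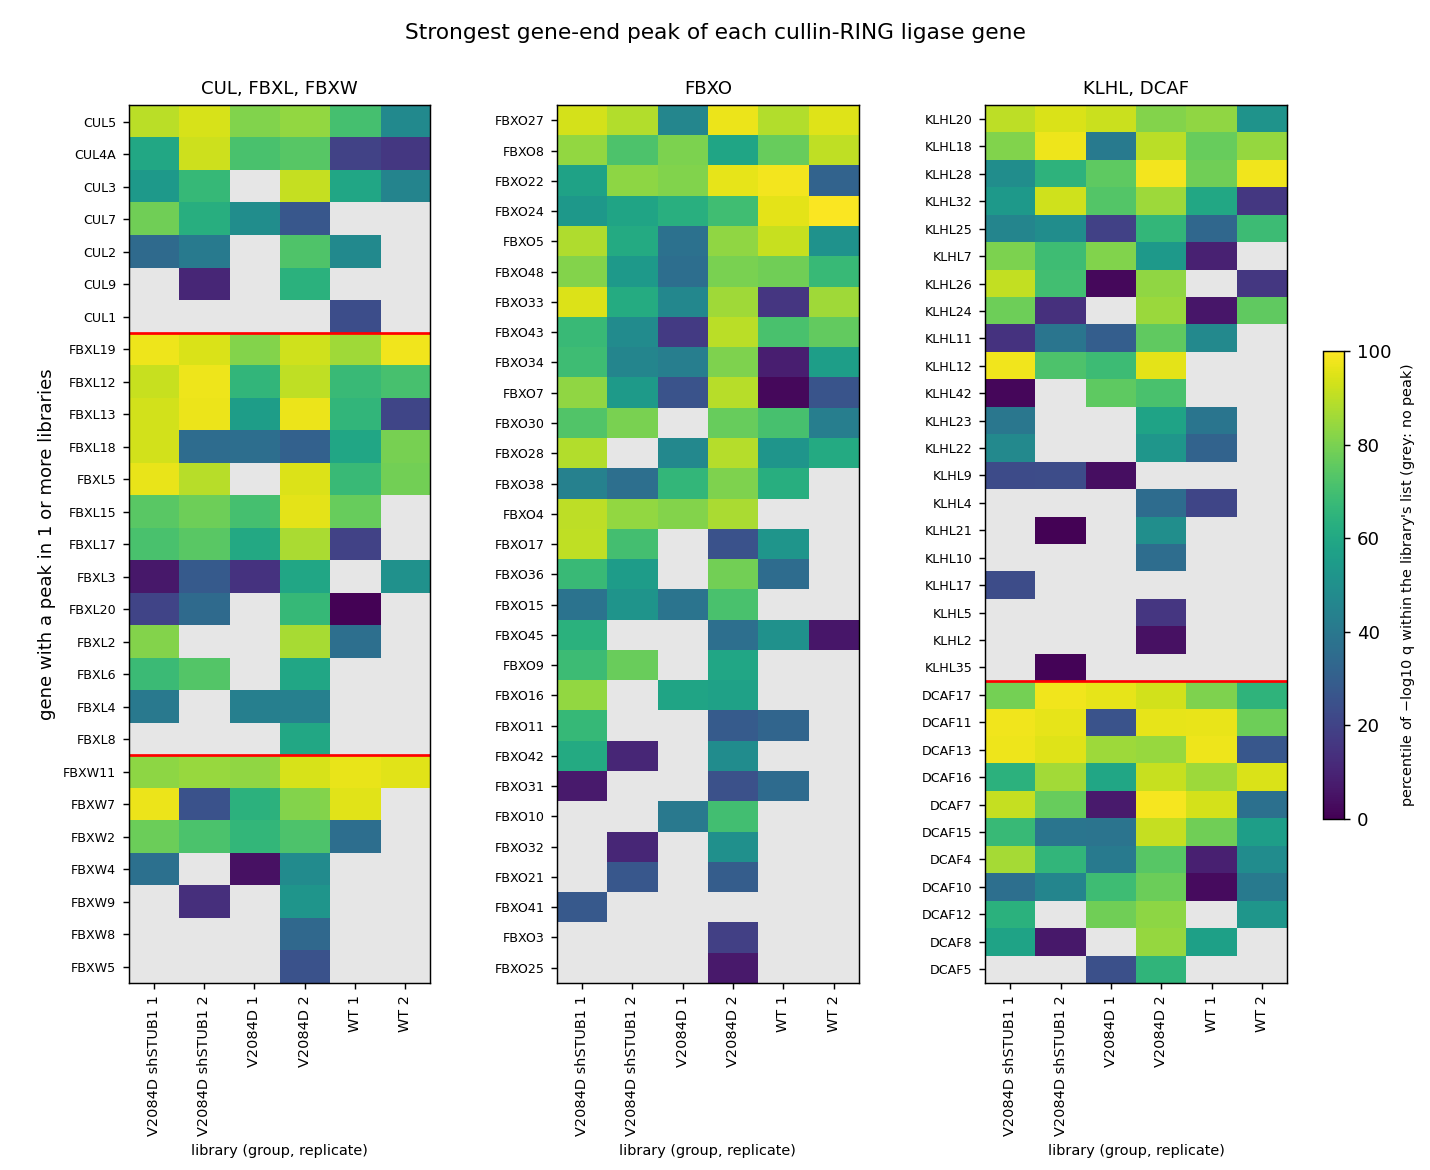
Percentile of −log10 q within its own list (colour, 0 to 100) of the top gene-end peak at each of the 88 cullin-RING ligase genes with a peak in 1 or more libraries. Columns are the V2084D shSTUB1, V2084D and WT libraries, red lines part the classes, and grey cells have no called peak. V2084D replicate 2 fills the most cells (83 members) and WT replicate 2 the fewest (39).

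The cullin scaffolds are considered first. CUL5, the scaffold for SOCS-box receptors, had a peak in every library (in V2084D shSTUB1 replicate 1 at chr11:108008771-108009396), with summits 27 to 442 bp inside the annotated start. Its fold over local background was 8.16 and 8.60 in V2084D shSTUB1, 6.71 and 7.73 in V2084D and 6.47 and 5.56 in WT, resting on 15 and 15, 10 and 16, and 10 and 8 reads at the summit. The V2084D shSTUB1 values lay above the others, but a fold belongs to its own list and was not compared between lists of different depth. CUL4A, a scaffold of DCAF ligases, was the other cullin with a peak in all 6, with folds of 5.88 and 8.16 in V2084D shSTUB1, 6.11 and 6.88 in V2084D and 4.65 and 4.55 in WT. The CUL4A peak also lay at an end of PCID2 and so cannot be assigned to either gene.

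CUL3, the partner of KLHL proteins, had a peak in 5 libraries. Its folds were 5.88 and 6.12 in V2084D shSTUB1, 8.40 in V2084D replicate 2 alone, and 5.95 and 5.49 in WT, so the shallower V2084D library was the exception. CUL2, the scaffold of the VHL ligase, had a peak in 4 libraries (both V2084D shSTUB1, V2084D replicate 2 and WT replicate 1), at an end it shares with CREM. CUL9, a p53-binding cullin, had a peak in V2084D shSTUB1 replicate 2 (fold 4.27) and V2084D replicate 2 (fold 6.31), at an end shared with SRF. CUL1, the scaffold of F-box ligases, had a gene-end peak in WT replicate 1 alone, with a fold of 4.82 from 7 reads and a summit 1098 bp inside the gene. CUL4B had none.

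CUL7, the scaffold that works with FBXW8, was the cullin with a peak in all 4 libraries with mutant ARID1A and in neither WT library. This pattern was found at 3.06% of all protein-coding genes. It had folds of 6.93 and 6.17 in V2084D shSTUB1 and 5.49 and 4.84 in V2084D, from 13, 9, 8 and 8 reads, and no peak in WT replicates 1 and 2. In V2084D shSTUB1 replicate 1 the peak lay at chr6:43053580-43054049, an end that CUL7 shares with MRPL2, a mitochondrial ribosomal protein gene. The nearest WT peaks were 23316 and 23345 bp from either end of CUL7. With lists cut to equal length, CUL7 still separated V2084D shSTUB1 from WT but no longer V2084D from WT. The same held with a −log10 q of at least 5.

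Across the receptor classes, F-box genes carried peaks more often than KLHL genes in every library. The share of the 63 F-box genes with a peak minus the share of the 37 KLHL genes was 22.95 and 18.8 percentage points in V2084D shSTUB1, 14.7 and 27.5 points in V2084D and 17.9 and 12.8 points in WT. Over the 6 libraries, FBXO genes averaged 55.1% ± 15.2, FBXL genes 56.9% ± 15.2, FBXW genes 38.3% ± 19.4, KLHL genes 33.8% ± 10.2, DCAF genes 50.9% ± 4.30 and CUL genes 58.3% ± 17.1 (SD, n = 6), beside 38.5% ± 11.5 for all protein-coding genes. KLHL genes were below all protein-coding genes in each of the 6 libraries, by 1.39 to 7.60 points, and FBXW genes were above in 2 and below in 4. The members of a class are genes and not replicates, so the classes are set side by side with no test.

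**Figure D2:**
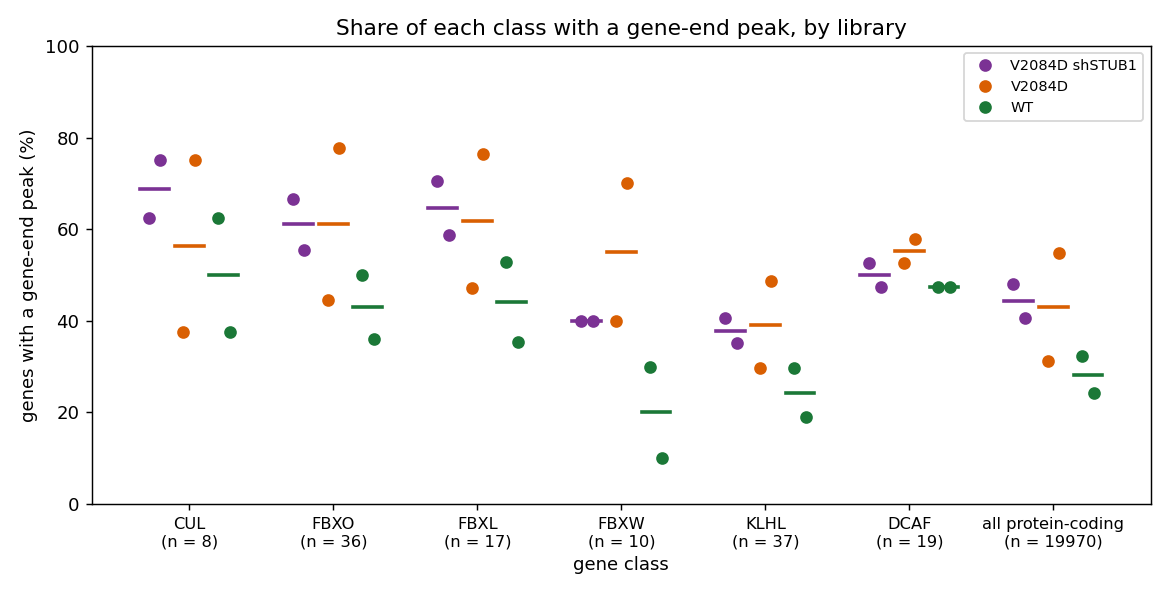
Percent of the genes of each class with a gene-end peak, 1 point per library, in V2084D shSTUB1 (purple), V2084D (orange) and WT (green) with the mean of each group as a bar, beside all protein-coding genes. KLHL genes average 33.8%, below the 38.5% of all protein-coding genes, and DCAF genes spread least over the libraries (SD 4.30 points).

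The classes also differed in how their genes split between constant presence and absence. DCAF had the largest share of the 6 classes in all 6 libraries, 8 of 19 genes (42.1%, exact 95% binomial interval 20.3 to 66.5%, counting error only), and 8 of 19 with no peak at all, leaving 3 between. FBXO had 10 genes in all 6 libraries, 19 in between and 7 without a peak. FBXL had 4, 9 and 4, and FBXW had 1, 6 and 3. KLHL had 5 of 37 in all 6 libraries (13.5%, interval 4.54 to 28.8%), 16 in between and 16 with none. These intervals treat genes as independent draws, which related copies are not, and were not used to compare the classes. Of all protein-coding genes, 15.8% had a peak in all 6 libraries and 41.8% had none. The shares with none in DCAF (42.1%) and KLHL (43.2%) were near the latter. The DCAF absences were mainly copies: the 6 genes with an L in their symbol (DCAF4L1, DCAF4L2, DCAF8L1, DCAF8L2, DCAF12L1 and DCAF12L2) had no peak in any library. Without them, 13 DCAF genes averaged 74.4% ± 6.28 over the libraries, and DCAF1 and DCAF6 were the remaining genes with none.

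**Figure D3:**
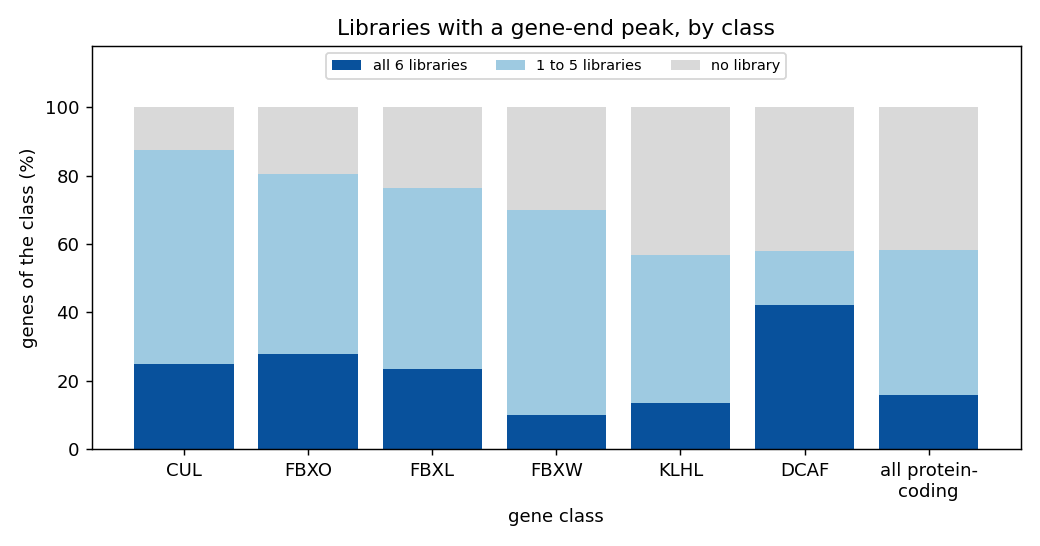
Stacked bars give the percent of the genes of each class with a gene-end peak in all 6 libraries, in 1 to 5, or in none, beside all protein-coding genes. DCAF has 8 of 19 genes in all 6 and 8 of 19 in none, and 16 of 37 KLHL genes are in none. All protein-coding genes have 15.8% in all 6 and 41.8% in none.

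Among F-box genes with a peak in all 6 libraries, the strongest FBXO members were FBXO27, FBXO8 and FBXO22, ranked by the mean percentile of their peaks in each list. FBXO27, a receptor for glycoproteins, had folds of 7.84 and 7.02 in V2084D shSTUB1, 5.26 and 9.15 in V2084D and 7.74 and 8.51 in WT. FBXO8, whose peak lay at an end shared with CEP44, had folds between 5.74 and 7.69 over the libraries. FBXO22, a receptor that targets KDM4 demethylases, had folds of 5.56 and 6.76 in V2084D shSTUB1, 6.37 and 8.71 in V2084D and 9.60 and 5.06 in WT. The 3 groups overlapped for FBXO27 and FBXO22.

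The leading FBXL genes were FBXL19, FBXL12 and FBXL13. FBXL19, which binds unmethylated CpG DNA through a zinc finger, had a strongest peak of 223 to 1304 bp in width, lying at chr16:30922164-30923428 in V2084D shSTUB1 replicate 1. It rested on 32 and 24 reads in V2084D shSTUB1, 16 and 35 in V2084D and 20 and 23 in WT, with folds of 6.85 and 6.41, 5.56 and 5.63, and 5.61 and 7.64. FBXL12 had folds of 5.85 to 9.50 and FBXL13, at an end shared with ARMC10, of 4.71 to 9.44. The FBXL18 peaks completed the 4 FBXL genes found in all 6.

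FBXW11, a receptor for phosphorylated beta-catenin and IkB, was the FBXW gene with a peak in all 6 libraries. Its folds were 6.29 and 6.29 in V2084D shSTUB1, 6.36 and 6.91 in V2084D and 7.95 and 7.52 in WT, and its WT peaks stood at percentiles 96.9 and 95.4 of their lists. BTRC, its close relative outside the symbol rule, also had a peak in all 6, with folds of 7.45 to 10.1. FBXW7, the receptor for cyclin E and MYC, had a gene-end peak in 5 libraries, with folds of 8.63 and 4.63 in V2084D shSTUB1, 5.79 and 6.15 in V2084D and 8.26 in WT replicate 1.

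Of the KLHL genes, KLHL20, KLHL18 and KLHL28 led. KLHL20, a receptor for the kinase DAPK, had folds of 8.25 and 8.93 in V2084D shSTUB1, 7.79 and 7.62 in V2084D and 7.35 and 5.71 in WT. KLHL18, a receptor for Aurora A, had folds of 5.10 to 9.17, and KLHL28 of 5.12 to 9.34. Each of these peaks also lay at the end of a neighbour (ANKRD45, KIF9 and TOGARAM1), and of the 5 KLHL genes found in all 6 libraries, 4 shared their peak in every library. KLHL32 and KLHL25 were the other two.

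The leading DCAF genes were DCAF17, DCAF11 and DCAF13. DCAF17, the gene altered in Woodhouse-Sakati syndrome, had folds of 6.76 and 9.52 in V2084D shSTUB1, 8.08 and 8.16 in V2084D and 6.84 and 6.04 in WT, at an end shared with METTL8. DCAF11, whose peak was at an end shared with NRL, had folds of 4.55 to 8, and DCAF13, which works in ribosomal RNA processing and shares its end with SLC25A32, of 4.72 to 9.20. Of the 8 DCAF genes found in all 6 libraries, 5 shared the peak with a neighbour in every library, against 1230 of 3161 such genes (38.9%) among all protein-coding genes. For all members found in all 6 libraries it was 15 of 30.

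Members known for other tissues were mostly without a peak. Among all protein-coding genes 41.8% had no peak and 15.8% had one in all 6 libraries. Of 10 members linked to muscle, 9 had none, KLHL40, KLHL41, KLHL31 and FBXO40 among them. The exception was FBXO32 (atrogin-1), the F-box protein induced in muscle wasting, with folds of 4.27 in V2084D shSTUB1 replicate 2 and 5.56 in V2084D replicate 2. Of 13 linked to germ cells or testis, 9 had none. FBXO24 and FBXO43 had a peak in all 6 libraries, each at an end shared with a neighbour (LRCH4 and POLR2K), FBXO15 had peaks in 4 and KLHL10 in 1. Of 5 linked to the nervous system, 4 had none and FBXO41 had a peak in V2084D shSTUB1 replicate 1.

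Of these 28 members 22 had no peak, so leaving them out raised the share of each class that held any of them. KLHL genes then still had the lowest mean share of the 6 classes, while the order of the other classes changed. The mean KLHL share was now above the 38.5% of all protein-coding genes, a set from which no tissue genes were taken out. The remaining 27 KLHL genes averaged 45.7% ± 13.0 over the libraries, 27 FBXO genes 61.7% ± 17.5, the 8 CUL genes, none of which was on these lists, 58.3% ± 17.1, 15 FBXL genes 64.4% ± 17.2, 7 FBXW genes 54.8% ± 27.7 and 15 DCAF genes 64.4% ± 5.44 (SD, n = 6). On chromosome X, 8 of 9 members had no peak (88.9%), beside 484 of 848 protein-coding genes there (57.1%). These 9 hold 4 of the DCAF L copies and CUL4B, and KLHL4, with a peak in V2084D replicate 2 and WT replicate 1, was the exception.

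The first comparison asked whether the ARID1A missense change altered accessibility at these genes relative to wild-type ARID1A. The V2084D libraries had a gene-end peak at 67.5 ± 21.9 members and the WT libraries at 47 ± 11.3 (SD, n = 2 each), a difference of 20.5 members (p = 0.667, exact two-sided permutation test of 2 libraries against 2). The smallest p that this design allows is 0.333, and p was 1 after Benjamini-Hochberg adjustment over the 3 comparisons. The groups overlapped, since V2084D replicate 1 (52 members) lay below WT replicate 1 (55 members). Longer lists gave more genes with a peak among all genes as well, and the members' share divided by that of all genes was 1.26 ± 0.0859 in V2084D and 1.31 ± 0.0493 in WT (p = 0.667, exact permutation test). With every list held to 7234 summits, the length of the shortest, the difference was 1.5 members, and it was 5 without V2084D replicate 2 but 36 when replicate 1 was left out instead.

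Gene by gene, 10 of 127 members (7.87%) had a peak in each V2084D library but in no WT library, against 5.07% of all protein-coding genes. No member had the reverse pattern, which was found at 0.0501% of all genes. The 10 comprised 4 FBXO, 2 KLHL and 1 each of CUL, FBXL, FBXW and DCAF genes, so no class held most of them. With equal list lengths the count was 3 (1.97% of all genes) and the reverse count 2 (1.73%).

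FBXO4, a reported receptor for cyclin D1, led these 10 and was among the 2 of them, with KLHL12, that also had the pattern at equal list lengths. It had folds of 7.94 and 7.14 in V2084D shSTUB1 and 6.59 and 7.98 in V2084D, and no peak in WT replicates 1 and 2. The reads at the summit were 16 and 13 in V2084D shSTUB1 and 11 and 18 in V2084D. The 4 summits lay within 28 bp of the annotated start, in the printed promoter (in V2084D shSTUB1 replicate 1 the peak was chr5:41925139-41925760), and 192, 173, 265 and 279 of its 300 bases were covered. The nearest WT peaks were 20804 and 20633 bp away.

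KLHL12, a receptor for Dishevelled and for the COPII coat protein SEC31, had the pattern only through the 1000 bp limit. Its peak lay inside the gene, with its edge 910 and 921 bp from the start in V2084D shSTUB1, 934 and 924 bp in V2084D and 1261 and 1138 bp in WT. The WT peaks (folds of 8.24 and 5.95) overlapped the same stretch of chromosome 1. KLHL12 therefore had an accessible site near its start in all 6 libraries. Just inside the limit in the members were KLHL35 and FBXO21 (962 bp in V2084D shSTUB1 replicate 2) and CUL1 (949 bp in WT replicate 1). Just outside were CUL1 in V2084D replicate 2 (1051 bp) and KLHL17 in V2084D replicate 2 (1054 bp).

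The other members of the 10 rested on fewer reads or a lower fold. KLHL42, a receptor for a katanin subunit, had folds of 3.53 in V2084D shSTUB1 replicate 1 and 6.32 and 6.58 in V2084D, at an end shared with MANSC4. FBXO10, which targets BCL2, had folds of 5.26 and 6.41 in V2084D, from 7 and 14 reads, and no peak in the V2084D shSTUB1 or WT libraries. DCAF5 had folds of 4.50 and 5.39 in V2084D and likewise no peak elsewhere. FBXO15, a gene known from pluripotent mouse cells, had folds of 5.29 and 5.77 in V2084D shSTUB1 and 5.15 and 6.99 in V2084D, at an end shared with TIMM21. The strongest V2084D peaks of FBXO15 lay 156 bp apart, and those of FBXL4, a regulator of mitophagy, 143 bp apart, and V2084D replicate 2 had 2 gene-end peaks at each gene. FBXO16 (folds of 5.56 and 5.03 in V2084D), FBXW4 (3.80 and 5.24) and CUL7 completed the set.

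The second comparison asked what STUB1 knockdown changed in V2084D cells. A gene-end peak was present at 66 ± 5.66 members in V2084D shSTUB1 and 67.5 ± 21.9 in V2084D (SD, n = 2 each), a difference of -1.5 members (p = 1, exact permutation test). Both V2084D shSTUB1 libraries fell between the 2 V2084D libraries, and the sign turned with the library left out: the difference was 14 without V2084D replicate 2 and 2.5 without V2084D shSTUB1 replicate 2, but -17 when V2084D replicate 1 was left out. No member had a peak in each V2084D shSTUB1 library but in no V2084D library, against 0.366% of all protein-coding genes. In the other direction 2 of 127 (1.57%) had a peak in each V2084D library but in no V2084D shSTUB1 library, against 0.656% of all genes. These 2 were FBXO10 and DCAF5, described above, whose summits in V2084D lay within 19 bp of the annotated start. At equal list lengths neither was among the members with this pattern.

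The last comparison set V2084D shSTUB1 against WT. The count was 66 ± 5.66 members in V2084D shSTUB1 and 47 ± 11.3 in WT (SD, n = 2 each), a difference of 19 members (p = 0.333, exact permutation test, the smallest the design allows). Here the groups did not overlap: the V2084D shSTUB1 libraries had 70 and 62 members and the WT libraries 55 and 39. The members' share divided by that of all genes ran the other way. It was 1.17 ± 0.0414 in V2084D shSTUB1 and 1.31 ± 0.0493 in WT (p = 0.333, exact permutation test). This depends on the scale: with the share of all genes subtracted in place of divided, the libraries of these groups overlapped. With lists of equal length the difference was -0.5 members, and without WT replicate 2 it was 11. A peak in each V2084D shSTUB1 library but in no WT library was found at 8 of 127 members (6.30%), against 7.07% of all protein-coding genes, and the reverse at none of them, against 0.135% of all genes. The standing of the members against all genes turned with the setting: the count was 7 against 1.75% of all genes at equal list lengths, and 14 against 6.11% with a −log10 q of at least 5.

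The 8 were FBXO4, KLHL12, FBXO9, FBXL6, CUL7, FBXO15, FBXO42 and KLHL9. FBXO9, a receptor that controls mTOR-related kinases through TELO2, had folds of 5.63 and 6.02 in V2084D shSTUB1 and 5.15 in V2084D replicate 2, at an end shared with LOC128031835. FBXL6 had folds of 6.03 and 6.14 in V2084D shSTUB1 and 5.33 in V2084D replicate 2, at an end shared with SLC52A2. FBXO42, a receptor for p53, had folds of 5.94 and 4.27 in V2084D shSTUB1 and 5.45 in V2084D replicate 2. KLHL9, which acts on Aurora B in mitosis, had folds of 4.76 and 4.79 in V2084D shSTUB1 and 3.80 in V2084D replicate 1, from 7, 6 and 5 reads. Both comparisons with WT share the WT libraries. Over all 6, 4 members (3.15%) had a peak in each of the 4 libraries with mutant ARID1A and in neither WT library, namely CUL7, FBXO15, FBXO4 and KLHL12, against 3.06% of all protein-coding genes. The reverse was found at 0 members, against 0.025% of all genes.

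The gap between F-box and KLHL genes was set between groups as well. It averaged 20.9 points in V2084D shSTUB1, 21.1 in V2084D and 15.4 in WT. The difference was 5.77 points for V2084D over WT (p = 0.667), -0.236 for V2084D shSTUB1 over V2084D (p = 1) and 5.53 for V2084D shSTUB1 over WT (p = 0.333), each by an exact permutation test. The gap was wider in the longer lists, 27.5 points in the longest and 12.8 in the shortest.

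The members' peaks were start-site peaks. Of 361 pairs of a member and a library with a gene-end peak, 301 were at genes whose strand was known from the promoter table, and 298 of these (99.0%) were nearest to the annotated start, beside 95.6% for all protein-coding genes. The exceptions were FBXO21 and KLHL35 in V2084D shSTUB1 replicate 2 and KLHL17 in V2084D shSTUB1 replicate 1. The median summit lay 31.5 bp before the start in the members and 41 bp before it in all genes. The CUL median was 260 bp inside the gene, over 24 pairs from 6 genes of which CUL5 and CUL4A gave 12. Their summits lay 27 to 558 bp inside, whereas those of CUL3 had positions of -517 to -256 bp, before the start. Median fold (5.98 in members and 5.97 in all genes), reads at the summit (11 and 11) and width (441 and 427 bp) were alike.

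**Figure D4:**
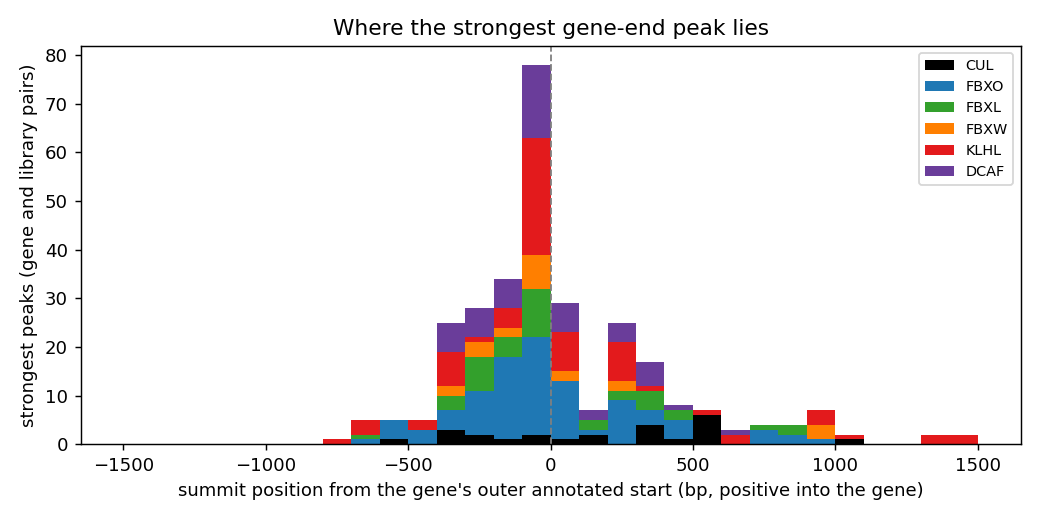
Histogram of the distance in bp of the strongest gene-end peak's summit from the gene's outer annotated start (positive into the gene), counted over pairs of a member and a library and stacked by class. The counts gather beside 0 (median -31.5 bp), while CUL summits (black) have a median of 260 bp and lie on both sides of the start.

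A gene-end peak was shared with the end of another protein-coding gene in 139 of the 361 pairs (38.5%), beside 33.04% for all genes. The share was 57.1% in CUL, 56.9% in DCAF, 38.7% in KLHL, 34.5% in FBXO, 26.1% in FBXW and 24.1% in FBXL genes. The peaks of DCAF and CUL genes were therefore the hardest to assign to the member.

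Some genes without a gene-end peak had one at another annotated start. Over the 104 members in the promoter table, 27 had a peak within reach of some start in all 6 libraries, beside 25 at gene ends, and of 32 with no gene-end peak 5 had a peak at an inner start. This way of counting was chosen after the values were seen. It gave 8 members a peak in more libraries and 5 in fewer, among them FBXL5, with 1 library in place of 5. DCAF6 had a peak in all 6 libraries by its listed starts 72663 and 73107 bp inside the gene, and each peak spanned the first of these. The DCAF6 folds were 7.27 and 8.01 in V2084D shSTUB1, 5.33 and 8.33 in V2084D and 7.14 and 5.08 in WT. The inner start of FBXO46, 2281 bp inside, had a peak in 5 libraries. CUL4B, which had no gene-end peak, had a peak by a start 14079 bp inside in V2084D shSTUB1 replicate 1 (fold 6.44) and in both V2084D libraries (5.95 and 6.19). KLHL8 and FBXL14 had peaks in 2 libraries and 1 library.

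Inner starts also filled gaps at other members. CUL2 had a peak 36392 bp inside the gene in V2084D shSTUB1 (folds of 5.49 and 7.05), V2084D replicate 2 (8.42) and WT (5.56 and 5.22). FBXW7 had one at a start 183266 bp inside the gene in WT replicate 2, with a fold of 9.56, so every library had a peak at some start of FBXW7. The promoter at the CUL4B gene end, the inner CUL4B promoter and an inner DCAF6 promoter are printed as starts without and with nearby peaks, with capitals as before. The DCAF6 window is that of the start 73107 bp inside, which not every peak reached. The start 72663 bp inside is not printed.
CUL4B (chrX:120575483-120575782, − strand): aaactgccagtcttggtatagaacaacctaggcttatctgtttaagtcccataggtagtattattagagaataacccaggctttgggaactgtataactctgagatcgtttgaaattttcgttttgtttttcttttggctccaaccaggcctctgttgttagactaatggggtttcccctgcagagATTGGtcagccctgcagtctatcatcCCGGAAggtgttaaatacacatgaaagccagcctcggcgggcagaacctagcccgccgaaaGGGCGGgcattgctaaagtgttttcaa
CUL4B inner (chrX:120561404-120561703, − strand): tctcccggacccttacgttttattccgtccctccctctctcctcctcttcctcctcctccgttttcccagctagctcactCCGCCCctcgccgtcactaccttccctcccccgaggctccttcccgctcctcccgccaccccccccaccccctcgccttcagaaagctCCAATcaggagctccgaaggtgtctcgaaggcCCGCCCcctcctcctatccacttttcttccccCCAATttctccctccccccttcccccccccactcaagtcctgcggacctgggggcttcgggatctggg
DCAF6 inner (chr1:167936433-167936732, + strand): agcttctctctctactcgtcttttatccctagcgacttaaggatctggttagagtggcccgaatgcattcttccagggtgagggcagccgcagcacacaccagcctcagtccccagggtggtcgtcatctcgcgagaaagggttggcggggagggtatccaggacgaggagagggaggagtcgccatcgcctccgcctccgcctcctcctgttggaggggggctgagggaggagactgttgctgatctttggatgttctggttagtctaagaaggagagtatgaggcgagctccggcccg

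The outer CUL4B window had 0 of 300 bases under a peak in every library. Of the inner window, 221 and 0 bases were covered in V2084D shSTUB1, 0 and 53 in V2084D and 0 and 0 in WT. The inner DCAF6 window was covered by 260 and 260, 201 and 249, and 208 and 219 bases in the same order of groups.

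Promoter sequence differed between members with and without peaks. The window of a gene was that of its annotated start nearest the outer gene start, whatever the distance. It lay 36392 bp inside CUL2, 26212 bp inside FBXL5 and 72663 bp inside DCAF6. In DCAF8L2 it lay 121403 bp inside, in KLHL8 19913 bp and in KLHL5 17405 bp. DCAF6 and KLHL8 were counted with no peak, although DCAF6 had a peak by an inner start in each library and KLHL8 in 2. CpG dinucleotides in the 300-base window had a median of 27 in the 25 members with a peak in all 6 libraries, 29 in the 47 with a peak in 1 to 5 and 14.5 in the 32 with none. Among all protein-coding genes in the table the medians were 26, 27 and 7. By class the median was 31 in FBXL, 28 in FBXO, 26 in DCAF, 25 in FBXW, 20 in CUL and 19 in KLHL genes, and the 13 KLHL promoters with no peak had a median of 8. The outer CUL4B promoter had 8 CpG, and the inner CUL4B and printed inner DCAF6 promoters 16 each. The FBXO4 promoter had 29 and the FBXO10 promoter 27. The DCAF6 window 72663 bp inside, used for the medians, had 29. The promoters of the 7 FBXO genes without a peak had a median of 26, near that of the FBXO genes with peaks.

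**Figure D5:**
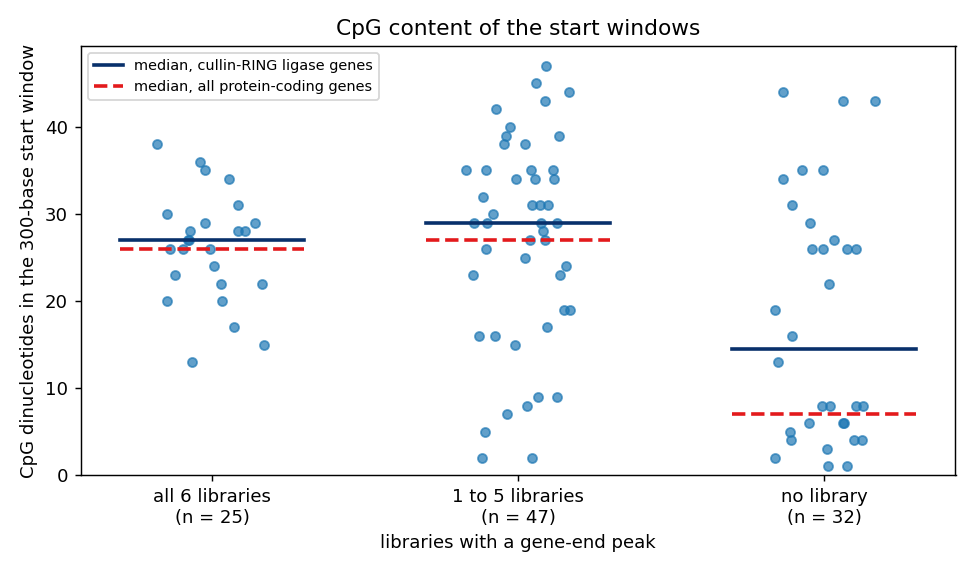
CpG dinucleotides in the 300-base promoter of each member in the promoter table, by the number of libraries with a gene-end peak (0, 1 to 5, or 6), with medians. The promoter is at the annotated start nearest the outer gene start, which in some members lies far inside the gene. The median is 14.5 with no peak, 29 with a peak in 1 to 5 libraries and 27 with a peak in all 6.

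Motifs were searched on both strands of these same windows, including those far from the gene end. CCGGAA, the core bound by ETS factors, was found in 48% of member promoters with a peak in all 6 libraries. It was in 42.6% of those with a peak in 1 to 5 and 6.25% of those with none. For all protein-coding genes the shares were 37.0%, 28.4% and 10.01%. TATAAA was found in 0%, 2.13% and 12.5% of member promoters, against 3.27%, 6.02% and 16.8% of all promoters. By the same split TGCGCA was in 16%, 17.0% and 18.75% of member promoters, against 18.0%, 12.9% and 5.25% of all promoters. CCAAT was in 28%, 23.4% and 31.25%, against 48.0%, 33.6% and 34.2%. GGGCGG was in 64%, 74.5% and 59.4%, against 71.9%, 71.9% and 37.2%. ATGGCGG was in 8%, 19.1% and 9.38%, against 12.7%, 9.54% and 3.12%. Over all 104 member promoters CCAAT was found in 26.9% (36.4% of all 15811 promoters), GGGCGG in 67.3% (58.3%), CCGGAA in 32.7% (22.7%), TGCGCA in 17.3% (10.8%) and ATGGCGG in 13.5% (7.58%). The KLHL20 promoter holds CCGGAA on both strands and the CUL5 promoter holds it beside GGGCGG on both strands. The FBXO27 promoter, which lay outside its gene's peak, holds none of the 6 motifs. A match describes the letters of the window and shows neither binding nor its absence.

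The rest of the cullin-RING machinery was scored the same way. Among all protein-coding genes 15.8% had a peak in all 6 libraries and 41.8% had none. RBX1 and RNF7, the RING subunits, and ELOC, an elongin, had a peak in all 6 libraries, with folds of 5.10 to 9.02 for RBX1. SKP1, the F-box adaptor, had a peak in V2084D shSTUB1 replicate 1 (7.48) and V2084D replicate 2 (4.09), DDB1, the DCAF adaptor, in 4 libraries, and ELOB in 1. Of 10 neddylation genes, NEDD8 and DCUN1D3 had a peak in all 6 libraries, and UBA3, DCUN1D1 and DCUN1D4 had none. The 20% in all 6 libraries was near the 15.8% of all protein-coding genes. DCUN1D3, a neddylation ligase, had folds of 8.49 and 8.42 in V2084D shSTUB1, 6.82 and 10.1 in V2084D and 10.4 and 7.04 in WT.

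Of 14 genes of the COP9 signalosome, CAND proteins and deneddylation, 5 had a peak in all 6 libraries (COPS7B, COPS4, COPS7A, COPS3 and CAND1) and 4 had none (GLMN, COPS6, SENP8 and GPS1). The shares of all protein-coding genes were 15.8% in all 6 libraries and 41.8% with none. Of 8 partner ubiquitin-conjugating enzymes and ARIH ligases, UBE2D3, ARIH1 and UBE2G1 had a peak in all 6, and UBE2D2 and UBE2R2 had none. None of these 38 genes had a peak in each V2084D library but no WT library, nor the reverse, patterns found at 5.07% and 0.0501% of all protein-coding genes. NAE1 and CAND2 had one in each V2084D shSTUB1 library but no WT library, against 7.07% of all genes.

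Of 26 substrate receptors outside the symbol rule, 8 had a peak in all 6 libraries, against 15.8% of all protein-coding genes, and none lacked one in every library, against 41.8%. Among the 8, BTRC and DTL, a CUL4 receptor that acts during DNA replication, had the highest mean percentile, with IPP. SKP2, the receptor for p27, had the lowest, with folds of 3.85 to 5.65. A peak in each V2084D library but no WT library was found at 6 of 26 (ZYG11B, SPOPL, ASB1, CRBN, CCNF and SOCS1), against 5.07% of all genes. In each V2084D shSTUB1 library but no WT library one was found at 4 of these (ZYG11B, SPOPL, ASB1 and CCNF), against 7.07%. This list was chosen with earlier results of these data known, so the counts are no measure of an excess. Neither count was repeated at equal list lengths, where the first pattern fell from 10 to 3 of the 127 members. ZYG11B had folds of 7.14 and 6.41 in V2084D shSTUB1, 7.32 and 9.38 in V2084D and no peak in WT. CRBN, the receptor bound by thalidomide, had folds of 4.55 in V2084D shSTUB1 replicate 2 and 3.39 and 8.23 in V2084D. KEAP1, the CUL3 receptor for NRF2, had a peak in 5 libraries, all but WT replicate 2.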

How the data were processed

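ATAC-seq of 6 Huh7 libraries, 2 in each of the V2084D shSTUB1, V2084D and WT groups by their titles, gave 1 deposited peak list per library. The submitters' processing notes list the build hg38 and the tools Trimmomatic, Bowtie2, Picard, SAMtools, deepTools, MACS2 and bedtools. The sources used here do not state versions, how the tools were run, or whether reads were shifted to the Tn5 cut. These deposited lists are narrowPeak files called per library, with the authors' score, −log10 q, −log10 p and fold (the ratio of pileup over local background) for each summit. A fold is the authors' own value for a peak and describes it within its list only.

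Genes, their starts and ends came from a RefSeq GRCh38 table, and promoters from a RefSeq GRCh38 table that held 104 of the 127 members and gave their strand. Exons and introns were not used here. Peaks on chromosomes 1 to 22 and X were kept. A gene-end peak lay within 1000 bp of either gene end, and the strongest was the one with the highest −log10 q. Reads at a summit were recovered from the deposited fold and −log10 p with a Poisson model and a pseudocount of 1, and came out whole, within 0.001 in −log10 p, for 99.9889% to 100% of the summits of each list. Groups were compared by exact two-sided permutation of libraries. The steps were tested on simulated data. Tables were handled with Python 3.11.15, pandas 2.3.3, numpy 2.4.6 and scipy 1.17.1.

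The named genes were all CUL genes, the 3 members of each other class in all 6 lists that ranked highest by mean percentile of −log10 q, up to 8 members per comparison and direction by the same ranking, any member of a count of 5 or fewer, and up to 4 per other list. Members named beyond this, the inner starts and the promoters of CUL4B and DCAF6 were chosen after values were seen. The members and lists were chosen with earlier results of these data known. Settings tried beside the main one were equal list lengths, a −log10 q minimum of 5, windows of 500 and 2000 bp, the summit inside the window, the annotated start alone, omission of each library, and replicate number as a block. The members by any annotated start, DCAF without its L copies and a crossed pairing were added after the data were seen.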

Additional observations from a re-analysis of the deposited data

How the results depend on the processing

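With every list held to its 7234 strongest summits, the mean shares were 35.4% of CUL, 39.4% of FBXO, 23.3% of FBXW, 19.4% of KLHL and 40.4% of DCAF genes, and 13 members, all among the 30, had a peak in all 6 libraries (8.40% of all genes). The difference in members was -0.5 for V2084D shSTUB1 over WT, and the F-box minus KLHL gap for V2084D shSTUB1 over V2084D was 5.08 points. The counts, each with the share of all genes, were 3 (1.97%) for both V2084D and neither WT, 2 (1.73%) for the reverse, 3 (1.27%) for both V2084D shSTUB1 and neither V2084D, 3 (1.68%) for the reverse, 7 (1.75%) for both V2084D shSTUB1 and neither WT and 2 (1.75%) for the reverse. With a −log10 q of at least 5, the mean shares were 33.3% of CUL, 31.9% of FBXO, 36.3% of FBXL, 23.3% of FBXW, 18.0% of KLHL and 32.5% of DCAF genes. At this setting 3 of 127 members had a peak in all 6, a share below the 3.18% of all genes. The difference in members for V2084D shSTUB1 over V2084D was then 3, and the gap was -4.31 points for V2084D over WT and 13.9 for V2084D shSTUB1 over V2084D. The counts were 6 (3.44% of all genes) for both V2084D and neither WT, 2 (0.466%) for both V2084D shSTUB1 and neither V2084D, 1 (0.766%) for the reverse and 14 (6.11%) for both V2084D shSTUB1 and neither WT. KLHL had the lowest mean share of the 6 classes under both settings.

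The gap for V2084D shSTUB1 over V2084D was 4.38 points in windows of 500 bp, 1.12 with the summit inside the window, 4.55 at the annotated start alone and 4.05 at any annotated start. For V2084D over WT it was -0.340 at the annotated start alone. The mean DCAF share was 57.8% at the annotated start alone, 64.4% at any annotated start and 74.4% without the L copies. The first 2 of these also leave out members with no strand. The cause of the moves was not tested. Of the named members, the share of libraries with a peak moved for 8 at a −log10 q of at least 5 and for 8 at equal lengths. KLHL12 had a peak in 100% of libraries in windows of 2000 bp and in 0% in windows of 500 bp.

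Leaving out each library in turn gave differences in members of 5 to 36 for V2084D over WT, -17 to 14 for V2084D shSTUB1 over V2084D and 11 to 27 for V2084D shSTUB1 over WT. The gaps ranged from -0.644 to 12.2, -6.65 to 6.18 and 3.003 to 8.07 points in the same order. The counts ranged from 10 to 26 for both V2084D and neither WT and 0 to 5 for the reverse, 0 to 12 for both V2084D shSTUB1 and neither V2084D and 2 to 11 for the reverse, and 8 to 20 for both V2084D shSTUB1 and neither WT and 0 to 2 for the reverse, since fewer libraries make each pattern easier to meet. Members in all libraries numbered 30 to 37. The mean shares ranged from 55% to 62.5% in CUL, 50.6% to 58.9% in FBXO, 52.9% to 61.2% in FBXL, 32% to 44% in FBXW, 30.8% to 36.8% in KLHL and 49.5% to 51.6% in DCAF.

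With the replicate number as a block the differences stayed at 20.5, -1.5 and 19 members (p = 1, 1 and 0.5, exact sign-flip permutation, the smallest possible being 0.5). The deviations of same-numbered libraries had correlations of -0.0591, -0.150 and 0.0355, so the numbers were not taken to pair them, and a shared batch was not tested. Crossing the numbers for V2084D shSTUB1 over V2084D also gave p = 1 by exact permutation, with no change in the counts of members. Over the main results and all settings, 198 values counted as unchanged, 39 moved and 15 changed sign. A difference or gap counted as unchanged unless its sign changed, whatever its size or p-value. A count of members was unchanged within a factor of 1.5, and a class share when it moved by less than the spread between replicates. The block settings, which cannot alter a mean difference, were entered as unchanged. Among the 198, the difference for V2084D over WT was 1.5 members at equal lengths, and its gap 1.59 points at equal lengths and 0.680 at any annotated start. The lists limit every absence: at a median of 8 to 12 reads per summit, a missing peak shows only that none was called. Whether depth or library quality set the length of a list was not tested.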
